A study of Mus musculus with 6 samples.

Results

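The genes described here are 10 markers of liver endothelial cells, *Pecam1*, *Cdh5*, *Kdr*, *Flt1*, *Tek*, *Eng*, *Stab1*, *Stab2*, *Lyve1* and *Clec4g*. They were chosen as known general and sinusoidal endothelial markers, and their rows were taken by gene symbol from the deposited gene table, which held 10 of the 10 among 24421 genes. RNA sequencing was performed on whole-liver mRNA from 3 wild-type (WT) mice and 3 mice heterozygous for a null allele of *Pai-1*. By the sample labels all mice were C57BL/6, 21 weeks old and fed without restriction, and the study describes them as male littermates on standard chow, names the substrain C57BL/6 J and gives a slightly lower age. The heterozygotes came from crosses of *Pai-1*-/- with WT mice, so the allele was not restricted to a cell type, and the livers were flushed with cold saline before they were preserved.

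The genotypes were not compared here. The 6 deposited columns of counts are headed only by numbers that match no sample label, so none could be given to WT or *Pai-1*+/-. The fold changes and p-values of the authors' own comparison were not used. What follows describes the level of each marker as the authors' mean over all 6 libraries, in which both genotypes are pooled. The unmatched columns were left out altogether, so no spread between mice is given. In whole liver, fewer cells of a type and less RNA per cell cannot be told apart.

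The liver sinusoid is a capillary whose endothelium is perforated by open pores and lacks an organized basement membrane, which lets plasma reach the hepatocytes directly. Its endothelial cells share junction proteins and growth factor receptors with other vessels, and in addition carry scavenger and lectin receptors that clear waste molecules from portal blood. The general markers here are the junction proteins PECAM1 and VE-cadherin, receptors for vascular endothelial growth factor (VEGF) and angiopoietins, and the bone morphogenetic protein (BMP) co-receptor endoglin, while stabilins, *Lyve1* and *Clec4g* mark the sinusoidal cells.

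All 10 markers had a mean normalized count above 10, the level from which the table marks a gene as within range, as did 12971 genes in all. The mean normalized count is the authors' mean of read counts after each library was scaled to a common depth, and the means of all genes summed to 30046000. The markers together had 7553, of which the 6 general markers made up 55.1% and the 4 sinusoidal markers 44.9%. *Eng* had the highest mean normalized count, 1606, followed by *Stab2* with 1273, *Kdr* with 1005, *Stab1* with 1002 and *Clec4g* with 915. The lower part of the range held *Cdh5* with 645, *Pecam1* with 464, *Tek* with 274, *Lyve1* with 205 and *Flt1* with 164. Thus 7 of the 10 lay above the median of the genes within range, which was 440.4, and 3 lay below it.

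**Figure D1:**
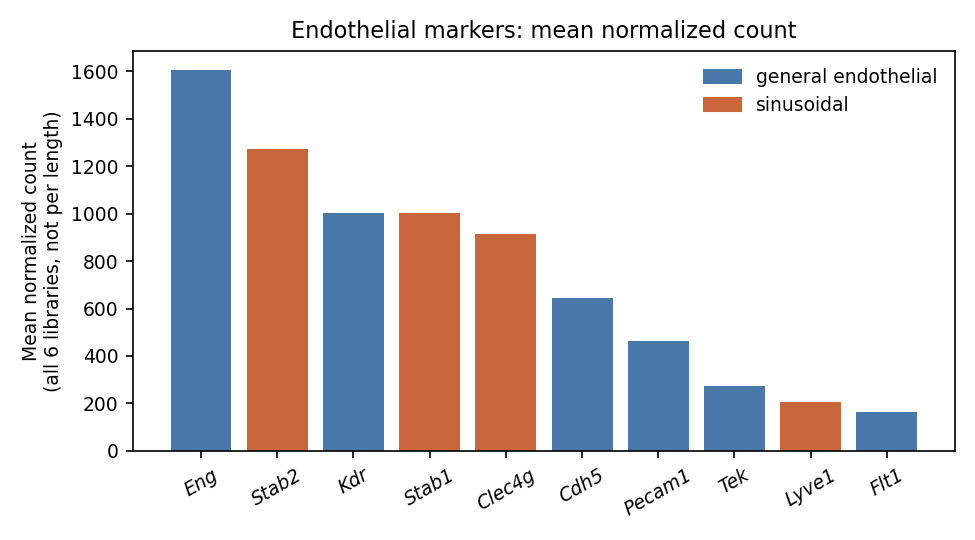
Authors' mean normalized count over all 6 libraries for the 10 endothelial markers, not divided by gene length, with general markers in blue and sinusoidal markers in orange. *Eng* stands at 1606 and *Flt1* at 164, and no error bars are drawn because values per mouse were not used.

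Because a long transcript yields more reads than a short transcript at the same number of molecules, levels are compared between genes below as the mean normalized count per kilobase of exon, with all annotated exonic bases of a gene counted once (GENCODE M21 on GRCm38, the assembly also named mm10). On this per-kilobase scale the markers ranged 32.8-fold, from 12.1 to 397, with a median of 104, against a median of 94.6 over the 12499 genes within range whose length could be matched. Of the 10 markers, 6 lay above that median and 4 below it. The range of the markers was 26.8-fold with the longest transcript, 25.4-fold with the coding length and 9.82-fold with no division by length. The annotation behind the counts is not given, so the lengths used here may differ from those of the counted genes. The interval between the lowest and the highest marker held 64.8% of all genes within range, so the markers covered the broad middle of the liver transcriptome rather than a narrow band.

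**Figure D2:**
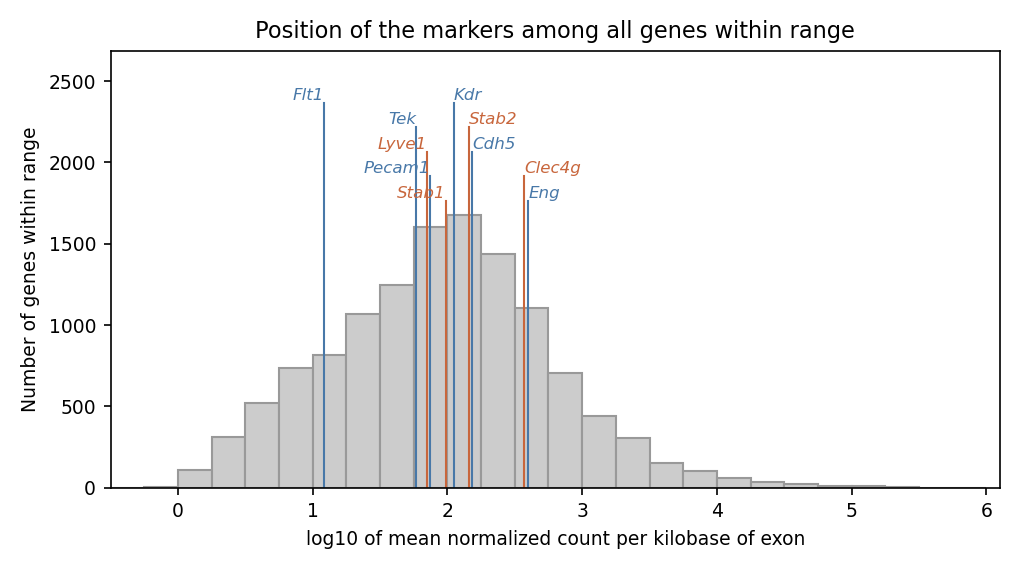
Number of genes within range (vertical axis) in bins of the log10 of the mean normalized count per kilobase of exon (horizontal axis), with lines at the 10 markers, general in blue and sinusoidal in orange. The markers run from *Flt1*, above 15.4% of the genes, to *Eng*, above 80.2%.

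*Eng* encodes endoglin, which binds BMP9 and presents it to the receptor ALK1. The gene lies at chr2:32646595-32682669 on the plus strand, and its longest coding transcript has 15 exons. Its level per kilobase, 397, was the highest of the 10 and exceeded 80.2% of the genes within range. Of 39 other endothelial genes examined, only *Plvap*, *Aqp1* and *Cd36* had a higher level per kilobase of exon, while 2 did with the longest transcript and 6 with the coding length. *Clec4g*, which encodes the sinusoidal C-type lectin LSECtin, followed with 372 per kilobase, above 79.2% of the genes within range. It lies at chr8:3707064-3720651 on the minus strand and has the shortest exonic sequence of the 10, with 2462 bases. The same 3 genes exceeded it by exonic length. *Eng* was 1.07 times *Clec4g*, and the order of the pair was turned when the length of the longest transcript or the coding length was used instead, which gave *Clec4g* 635 and 1038 per kilobase and *Eng* 469 and 820.03. Both therefore stand at the top of the set, without an order between them.

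The next markers were far lower, since the step from *Clec4g* to *Cdh5* was 2.42-fold. *Cdh5* encodes VE-cadherin, the adhesion protein of endothelial adherens junctions, and lies at chr8:104101625-104144511 on the plus strand. Its level was 153 per kilobase. *Pecam1*, which encodes the junctional adhesion protein CD31, lies at chr11:106654217-106750628 on the minus strand and had 74.5 per kilobase, 0.485 times the level of *Cdh5*. The ratio was 0.835 with the longest transcript and 0.77 with the coding length. The 8 transcripts annotated for *Pecam1* cover 6228 exonic bases together, while the longest has 3441. *Cdh5* was the higher of these junction genes under each length.

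The stabilins are large scavenger receptors that take up modified lipoproteins and other debris, and stabilin 2 is also a hyaluronan receptor. *Stab2* lies at chr10:86841198-87008025 and *Stab1* at chr14:31139013-31168641, both on the minus strand, and in both the longest coding transcript has 69 exons. *Stab2* had 145 per kilobase and *Stab1* 97.4, a ratio of 1.49, which was 1.24 with the longest transcript and 1.28 with the coding length. *Lyve1*, a hyaluronan receptor first known from lymphatic vessels and also present on sinusoidal cells, lies at chr7:110850607-110863239 on the minus strand. It had 70.1 per kilobase, and *Stab2* was thus 2.07 times as high. This relation depended on the length, as with the coding length, 954 bases in *Lyve1* and 7677 in *Stab2*, *Stab2* was 0.773 times *Lyve1*. The 4 sinusoidal markers had a median of 121 per kilobase and spanned 5.3-fold, or 8.97-fold with the longest transcript and 7.99-fold with the coding length.

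*Kdr* encodes VEGF receptor 2, the main signalling receptor for VEGF-A on endothelium, and *Flt1* encodes VEGF receptor 1, which binds VEGF-A tightly and is also made in a soluble form. Both lie on the minus strand of chromosome 5, *Kdr* at chr5:75932827-75978458 and *Flt1* at chr5:147561604-147726011, 71.6 megabases apart, and the longest coding transcript of each has 30 exons. *Kdr* had 111 per kilobase and *Flt1* 12.1, a 9.19-fold difference that remained 7.15-fold with the longest transcript, 6.09-fold with the coding length and 6.15-fold with no division by length. *Flt1* was the lowest of the 10 under each of these lengths. Its exonic sequence of 13504 bases is the longest of the set, whereas its longest transcript has 6895. The third receptor of this family, *Flt4*, which binds VEGF-C and VEGF-D, had 76.5 per kilobase, so that *Kdr* was 1.45 times *Flt4*.

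*Tek* encodes TIE2, the receptor for angiopoietins, and lies at chr4:94739289-94874976 on the plus strand. It had 58.2 per kilobase, and its partner *Tie1*, an orphan receptor that modulates TIE2, had 54.8, or 0.941 times as much. With the longest transcript *Tie1* was 1.08 times *Tek*. By exonic length the step from *Tek* down to *Flt1* was 4.81-fold. It was smaller with the other lengths, which gave *Tek* 58.9 and *Flt1* 23.7 with the longest transcript, and 81.4 and 40.9 with the coding length.

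**Figure D3:**
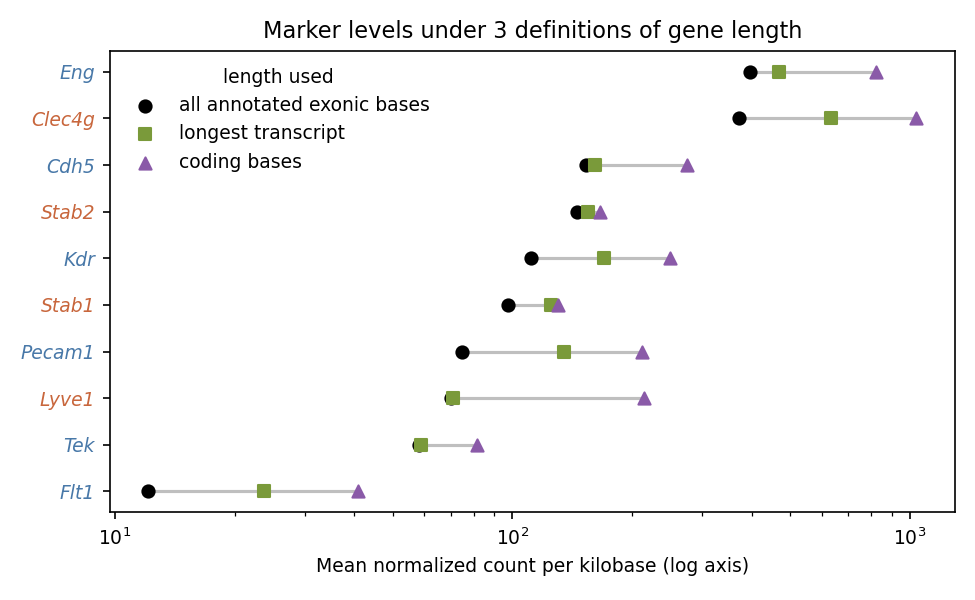
Mean normalized count per kilobase on a log axis for the 10 markers, with circles for all annotated exonic bases, squares for the longest transcript and triangles for the coding bases, and gene names in blue for general and orange for sinusoidal markers. *Eng* and *Clec4g* stand apart at the top and *Flt1* at the bottom under each length, while genes between them change places.

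From the top, the order by exonic length was *Eng*, *Clec4g*, *Cdh5*, *Stab2*, *Kdr*, *Stab1*, *Pecam1*, *Lyve1*, *Tek* and *Flt1*. Since values per mouse were not used, none of the steps was set against the spread between animals, and whether neighbours differ beyond it was not tested. Steps between neighbours were at most 1.31-fold except those above *Cdh5* and above *Flt1*. Among the 6 genes of the middle, *Kdr* rose from the fifth to the third place with the longest transcript, and *Lyve1* rose from the eighth to the fifth with the coding length. Under the 3 lengths, *Eng* and *Clec4g* held the upper places in either order, *Tek* the ninth and *Flt1* the tenth.

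The ligands of these receptors differed widely in level. *Vegfa*, which hepatocytes also make, had 1118 per kilobase, against 111 for *Kdr*, and was the highest of the 18 ligands and partners listed, of which 17 were found by their current symbols. *Vegfb*, a ligand of VEGF receptor 1, had 195 and *Vegfc* 40.8. *Vegfd* is listed under its older symbol *Figf* with a mean normalized count of 47.2, or 19.6 per kilobase. *Pgf*, the placental growth factor that binds VEGF receptor 1, was the lowest, with a mean normalized count of 0.674, which is under the range. Neuropilin 1, a co-receptor that binds VEGF-A beside VEGF receptor 2, is encoded by *Nrp1* and had 388 per kilobase, 3.49 times the level of *Kdr*, and 6.15 times with the longest transcript and 5.51 times with the coding length.

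For TIE2, the secreted ligands encoded by *Angpt1* and *Angpt2* were low in whole liver. *Angpt1* had 4.14 per kilobase and *Angpt2* 6.13, which is 0.071 and 0.105 times the level of *Tek*, or 0.177 and 0.187 times with the coding length. The ligand of endoglin was more abundant, as *Gdf2*, which encodes BMP9 and is made in the liver, had 144 per kilobase, 0.364 times the level of *Eng*. *Bmp10*, the related ligand from the heart, had 4.34. *Acvrl1*, which encodes ALK1, had 17.4, so that *Eng* was 22.8 times as high as the receptor it serves. *Id3* and *Id1*, direct transcriptional targets of BMP signalling, had 432 and 98.2 per kilobase.

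The sequence upstream of the start site was examined because endothelial genes are known to be controlled through ETS factors, which recognize the core GGAA. RefSeq promoters of 300 bases (GRCm38.p6) were matched for *Eng*, *Tek*, *Kdr*, *Flt1*, *Clec4g*, *Stab1* and *Stab2*. The 150 bases before the start site are shown for the 2 markers with the highest level per kilobase, *Eng* at chr2:32646445-32646594 (plus strand) and *Clec4g* at chr8:3720652-3720801 (minus strand), and for the VEGF receptors, *Kdr* at chr5:75978456-75978605 (minus strand) and *Flt1* at chr5:147726012-147726161 (minus strand). Each is written 5′ to 3′ on the strand of the gene, and capitals mark GGAA or its complement TTCC.
Eng: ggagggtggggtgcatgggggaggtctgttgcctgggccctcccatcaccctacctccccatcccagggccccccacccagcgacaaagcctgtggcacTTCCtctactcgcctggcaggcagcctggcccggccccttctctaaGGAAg
Clec4g: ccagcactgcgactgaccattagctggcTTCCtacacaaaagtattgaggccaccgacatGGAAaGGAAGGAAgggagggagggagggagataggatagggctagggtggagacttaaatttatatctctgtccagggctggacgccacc
Kdr: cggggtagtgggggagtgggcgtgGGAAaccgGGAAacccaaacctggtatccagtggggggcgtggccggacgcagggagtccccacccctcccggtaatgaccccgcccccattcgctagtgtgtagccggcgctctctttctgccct
Flt1: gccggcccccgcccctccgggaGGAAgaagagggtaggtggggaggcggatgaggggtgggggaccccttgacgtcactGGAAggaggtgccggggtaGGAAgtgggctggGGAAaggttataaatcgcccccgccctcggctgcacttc

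Within these 150 bases, *Clec4g* and *Flt1* held 4 matches each and *Eng* and *Kdr* 2 each. The promoters not shown held 5 in *Stab1*, 5 in *Stab2* and 2 in *Tek*, so the count did not follow the level in these 7. The RefSeq start lies 70 bases from the nearest GENCODE start in *Stab2* and 3 bases in *Kdr*. Part of the 150 bases of *Stab2* therefore lies inside the gene as annotated by GENCODE. Over 300 bases, GGAA on either strand was found from 2 to 6 times in the 7 promoters, with a median of 5 against 3 in all 27025 RefSeq promoters, of which 95.9% held at least 1. GATA, the core of the GATA factors, was present in 5 of the 7 and in 58.3% of all promoters. CACCC, the core of the KLF factors, was present in 7 of 7 and in 56.7% of all. The TATA box sequence TATAAA was found in *Flt1* on the strand of the gene, and in *Clec4g* only as its complement TTTATA. On either strand it was present in 14.2% of all promoters. Among the promoters of matched genes within range, 95.6% held GGAA, 45.1% GATA, 62.6% CACCC and 7.56% TATAAA. Each motif was searched on both strands, and matches of different motifs may share bases. The CG dinucleotide had a median of 6 in the 7 promoters against 7 in all promoters and 20 in those of the 9913 genes within range that were matched, and among the markers *Kdr* with 19 and *Flt1* with 29 held the most. These matches describe the letters only and no binding was measured.

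The genes also shared few reads with other genes as far as their sequence shows. Of 67402 distinct windows of 75 bases, the read length, in the annotated transcripts of the 10 markers, 0.231% occurred in a transcript of any other gene. No window was common to 2 of the markers, so reads of *Kdr* and *Flt1* or of *Stab1* and *Stab2* could be told apart at this length. The share was highest in *Stab2* with 0.804%, followed by *Clec4g* with 0.711%, *Pecam1* with 0.455% and *Stab1* with 0.34%, and the other 6 had no shared window. Exons of 4 markers overlap a gene on the opposite strand, by 146 bases or 5.93% of the exonic sequence in *Clec4g* (*Gm16553*), 141 in *Stab2* (*Gm16268*), 112 in *Stab1* (*Nt5dc2*) and 61 in *Eng* (*Fpgs*). *Fpgs*, a folate enzyme, had a mean normalized count of 4557, higher than the 1606 of *Eng*, with neither divided by length. That of *Nt5dc2* was 156. *Gm16553* and *Gm16268* were not found by symbol among the genes listed with counts. The sources used here do not say whether strand was used in counting. Reads from the overlaps with *Fpgs* and *Nt5dc2* could therefore have gone to either gene.

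The markers did not differ much from other genes in composition. Their longest transcripts had a median GC content of 51.0%, from 45.8% in *Lyve1* to 57.4% in *Eng*, against 49.7% over the genes within range. They were longer than the typical gene, with medians of 5470 exonic and 2861 coding bases against 4399 and 1410.

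Further endothelial genes were set beside the markers. This does not test the label, because only pooled means of whole liver were used. Of 21 other genes found in endothelium of many organs, 20 were within range, with a median of 36.3 per kilobase, 0.348 times that of the 10 markers and 0.161 times without division by length. *Plvap*, which forms the diaphragms of endothelial pores, was the highest with 463, and *Aplnr*, the apelin receptor, the lowest with a mean normalized count of 1.03. The ETS factors *Erg* and *Fli1* had 36.3 and 31.3 per kilobase. All 18 other genes known from sinusoidal cells were within range, and their median of 134 per kilobase was 1.28 times that of the markers, but 0.763 times when counts were not divided by length. *Cd36*, a fatty acid and scavenger receptor that other liver cells also express, was the highest with 1049, and *Wnt9b*, a signal of central vein endothelium, the lowest with 7.28. *Gata4*, the factor that specifies sinusoidal identity, had 150 and the coagulation factor gene *F8* 34.8. Of the 6 genes known from lymphatic endothelium, 4 were within range, with a median of 29.1 per kilobase over the 6. *Prox1*, which hepatocytes also express, was the highest with 96.0, and *Reln*, with 52.7, is also in the stellate cell and fibroblast list. *Pdpn* was under the range with a mean normalized count of 9.75, and *Ccl21a* was listed at 0.

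Per kilobase of exon, the markers had a lower median than the listed hepatocyte and Kupffer cell genes. Such levels of genes do not give the number of cells of each type. The 12 hepatocyte genes had a median of 46785 per kilobase, 448 times that of the markers, and 11 of the 12 lay above *Eng*, the exception being *Ass1* with 14.3. Albumin (*Alb*) was the highest gene of that list, and *Eng* reached 0.0431% of its level. The 12 genes of Kupffer cells, the macrophages of the sinusoid, had a median of 372 per kilobase, 3.56 times that of the markers, but 0.95 times when counts were not divided by length. *Cd5l* was the highest with 1166 and *Timd4* the lowest with 79.6, and 6 of the 12 lay above *Eng*. *Clec4f*, a lectin of Kupffer cells related to *Clec4g*, had 735 per kilobase, 1.98 times the level of *Clec4g*, but 1.16 times with the longest transcript and 1.06 times with the coding length. None of these differences was tested, since only the mean of each gene was used.

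**Figure D4:**
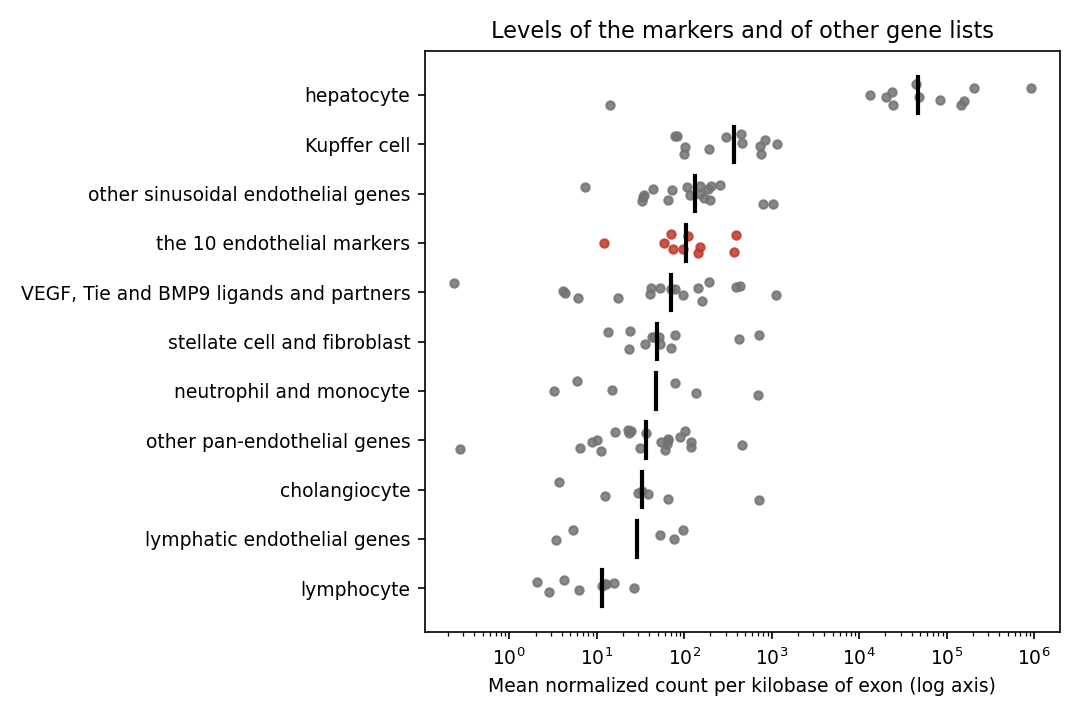
Mean normalized count per kilobase of exon on a log axis for the genes of 11 lists, each dot a gene and each black bar the median of its list, with the 10 endothelial markers in red. The median of the markers, 104, lies below those of hepatocyte, Kupffer cell and other sinusoidal genes. *Ccl21a*, listed at 0, is not drawn, and the height of a dot within its row carries no value.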

How the data were processed

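Libraries from whole-liver mRNA (3 WT and 3 *Pai-1*+/- mice) were read as single-end reads of 75 bases, and the authors aligned these to mm10 with STAR and analysed with DESeq2 in the RNA Express BaseSpace application. HOMER is also named in the submitters' processing notes, and versions, annotation and strand setting are not given in the sources used here. The signal used is the authors' deposited mean normalized count, in which read counts were scaled by the size factor of each library and then averaged over the 6 libraries. The authors' fold changes, standard errors and p-values in the same table were not used. A second deposited file holds 6 columns of counts headed only by numbers, none used because these numbers match no sample label. The planned edgeR test of the genotypes and its alternatives were therefore not run, and depth per library and the spread between mice are not given.

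Computed here were ranks, levels per kilobase from GENCODE M21 (96.4% of the genes within range matched by symbol to 1 gene), medians of the lists, exonic overlaps, shared windows and motif matches. The counting functions were tested on simulated sequences. The alternatives were the longest transcript, the coding length, no division by length, only genes within range, all rows for ranks, and windows of 50 bases. All 10 markers, the highest and lowest gene of each list, and genes listed at 0 or missing are named by rule, while partners and other genes were named after their values were seen. The markers and lists (pan-endothelial, sinusoidal, lymphatic, ligands and partners, hepatocyte, Kupffer cell, stellate cell, cholangiocyte, lymphocyte, neutrophil and monocyte, red cell) were chosen with earlier results of these data known. Calculations used pandas 2.3.3 and NumPy 2.4.6 under Python 3.11.15, and plots were drawn with Matplotlib 3.10.9. The level of 1 further gene named by the rule is not reported here.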

Additional observations from a re-analysis of the deposited data

How the results depend on the processing

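No paired analysis was possible because the columns of counts could not be matched to samples or groups, and the tests of the genotypes, with other normalization, another tool, no filter or a replicate left out, were not run for the same reason. The median level of the 10 markers was 104 per kilobase of exon and became 145 with the longest transcript, 213 with the coding length and 780.1 with no division by length, so levels are comparable only within a length definition. The median hepatocyte level was 448 times that of the markers, and 363, 495 and 217 times in the same order. The Kupffer cell and other sinusoidal lists kept a higher median than the markers with each length but fell to 0.95 and 0.763 times without division by length. The ligands and partners, 0.675 times the markers, were at 1.06 times with the coding length. With only genes within range, the neutrophil and monocyte list moved from 0.452 to 1.04 times the markers on 4 genes, and the red cell list rests on *Alas2* alone. The median share of genes within range below a marker was 63.7% by mean normalized count, and 80.7% among all rows of the table. Windows of 50 bases were shared in 0.515% against 0.231% at 75. Values per mouse were not used, so no result here carries an error.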

Other observations

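Other cells of the liver wall and of blood were also measured. The 12 genes of stellate cells and fibroblasts had a median of 48.6 mean normalized counts per kilobase of exon, 0.466 times that of the endothelial markers, with the matrix gene *Dcn* highest at 712 and *Hgf*, a growth factor for hepatocytes, lowest at 13.4. The 7 cholangiocyte genes had a median of 32.9, from 3.66 for the keratin gene *Krt7* to 710 for *Spp1*. The 9 lymphocyte genes, 7 of them within range, had a median of 11.4, from *Cd8a* at 2.08 to *Cd79b* at 27.0. With a mean normalized count of 7.56, *Cd8a* was under the range. Each of the 9 lay below *Tek*, and 4 of the 9 lay above *Flt1*, the lowest endothelial marker. Of the neutrophil and monocyte genes, 6 of 7 were found and 4 were within range, and *Ly6g* was not matched by symbol. They ran from *Ly6c2* at 3.26, under the range with a mean normalized count of 8.95, to *Lyz2*, which macrophages also express, at 703.

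A few genes stood far from their lists. The globin genes *Hba-a1*, *Hba-a2*, *Hbb-bs* and *Hbb-bt* were listed at 0, while *Alas2*, the haem synthesis enzyme of red cell precursors, had a mean normalized count of 2136. Of their windows of 75 bases, 67.9%, 84.6%, 51.5% and 56.6% in the same order occur in transcripts of other genes, and 61.3% do in *Ccl21a*, also listed at 0. *Ass1*, the urea cycle enzyme, had 14.3 per kilobase, while the other 11 hepatocyte genes had at least 13233, and 32.6% of its windows are shared. *Trf*, the transferrin gene, shares 56.0% of its windows and had 145401 per kilobase. The part of shared sequence in these values was not tested. In the 10 endothelial markers the highest share was 0.804%.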
